A study of Mus musculus with 72 samples.

Results

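The hearts and brains of 6 wild-type mice were compared gene by gene, in 30 RNA-seq libraries out of 72 in the series. The libraries were taken by their titles, which give genotype and tissue, and the comparison was chosen with earlier results of these data known. The 12 heart libraries came from the atria and the ventricles, and the 18 brain libraries from the cerebellum, the hippocampus and the cerebral cortex. Every mouse gave all 5 tissues, so each tissue was represented by 6 libraries. The animals were male C57BL/6J mice of 18 weeks with the Gnb5+/+ genotype, from a line that also carries a deletion in Gnb5. The labels name no treatment. The other libraries of the series come from Gnb5+/- and Gnb5-/- animals. Whole atria and whole ventricles of both sides were taken, so the atrial libraries also hold sinoatrial and atrioventricular node cells, and each brain region was dissected whole. In such bulk tissue, fewer cells of a type and less RNA per cell cannot be told apart.

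The heart pumps by the contraction of cardiomyocytes, which are packed with sarcomeres and mitochondria and burn mainly fatty acids. The brain is built of neurons, which signal through synapses and voltage-gated channels, and of glia that insulate and feed them, and it depends mainly on glucose. Many proteins come in a muscle form and a neural or general form made by related genes. Gnb5, the gene this mouse line was made to study, encodes a G protein beta subunit that pairs with regulators of G protein signalling of the R7 family (Rgs6, Rgs7, Rgs9 and Rgs11), and the pair shortens the signal from muscarinic receptors to GIRK potassium channels in cardiac pacemaker cells and in neurons.

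The values are reads counted per gene. Levels are given as normalised CPM, which is the count scaled by the library's total and its TMM factor, and levels of different genes are compared only per kb of exon. A difference is the log2 fold change of the mean of atria and ventricles over the mean of the 3 brain regions, positive where the heart was higher, with its standard error. A gene is called where its adjusted p lies below 0.05 (edgeR's quasi-likelihood test with the mouse as a block, Benjamini-Hochberg adjustment over 19477 genes). Reads counted on genes ranged from 30277796 to 43013334 in heart libraries and from 35449343 to 47114533 in brain libraries.

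Some libraries carried transcripts of the other organ. The neuron markers fixed for the check were called higher in brain for 10 of 10 and the cardiomyocyte markers higher in heart for 8 of 8. Myh6, the adult cardiac myosin heavy chain, stood at 110 normalised CPM in the hippocampus and 33.7 in the cerebellum of replicate 6, which is mouse 8, and at 0.787 in its cortex. In the other 15 brain libraries it was at most 0.108. Snap25, a neuronal fusion protein, stood at 2.24 and 2.83 in the atria of replicates 3 and 5, and at most at 0.210 in the other 10 heart libraries. Myl2, the ventricular light chain, ranged from 1.95 to 1041 in atria. The part of these transcripts in the results was not tested. Heart folds that moved by over 1.5 times without the hippocampus and cerebellum libraries of replicate 6, and brain folds that did so without the atria libraries of replicates 3 and 5, are also given without them.

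**Figure D1:**
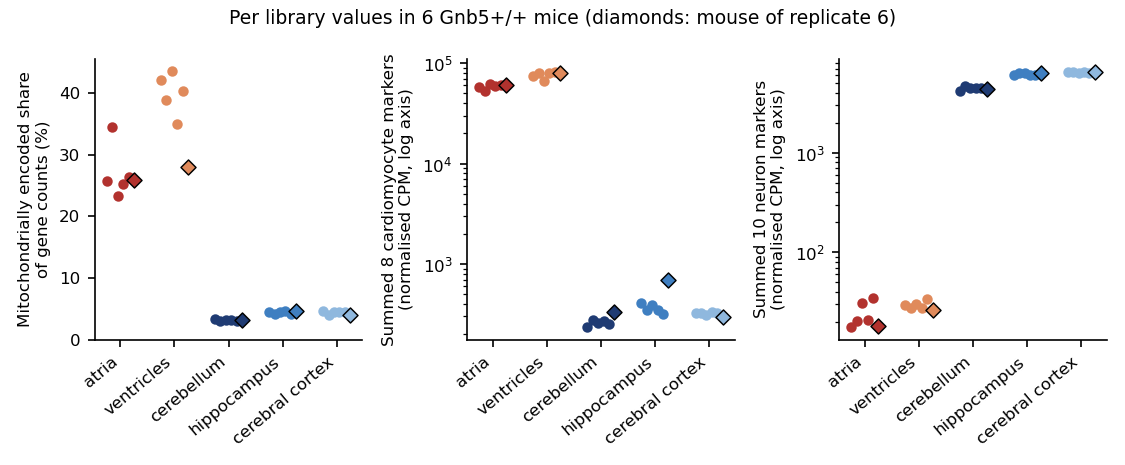
Share of gene counts from mitochondrially encoded genes (%), summed level of 8 cardiomyocyte markers and summed level of 10 neuron markers (both normalised CPM, log axis) in each of the 30 libraries by tissue, with diamonds for replicate 6. The mitochondrial share lies between 23.4% and 43.5% in heart and between 2.95% and 4.69% in brain, and the hippocampus library of replicate 6 stands above the others in cardiomyocyte markers at 685 normalised CPM.

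Nearly the whole transcriptome differed between the organs. Of the 19477 genes tested, 17843 (91.6%) were called, 7980 of them higher in heart (41%) and 9863 higher in brain (50.6%). Scaling by library totals alone, which leaves the mitochondrial transcripts of the heart in the total, gave 4952 and 13292. All 12 heart libraries lay above all 18 brain libraries for 4307 called genes (22.1%), and the reverse held for 4876 (25%). The median log2 fold change of all genes was -0.23. These shares are the background for each count that follows, and a list whose share lies near them shows nothing particular.

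Large differences were more frequent in the direction of the brain. A difference of at least 10-fold was found for 1587 called heart genes and 2993 called brain genes, and of at least 100-fold for 360 and 1084. Differences below 1.5-fold made up 1618 of the heart calls and 1861 of the brain calls. Of the genes called higher in brain, 497 had no count in any heart library, whereas 28 of those called higher in heart had none in any brain library, or 45 without the 2 brain libraries of mouse 8. These numbers set 12 heart libraries against 18 brain libraries that were mostly deeper. Without the 2 libraries the 10-fold counts were 1571 and 2986. The heart calls reached significance in the same direction in all 6 pairs of a heart tissue with a brain region for 5518 genes, and the brain calls for 6492. A significant difference in the opposite direction was found in at least 1 of these pairs for 945 heart calls and 946 brain calls.

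**Figure D2:**
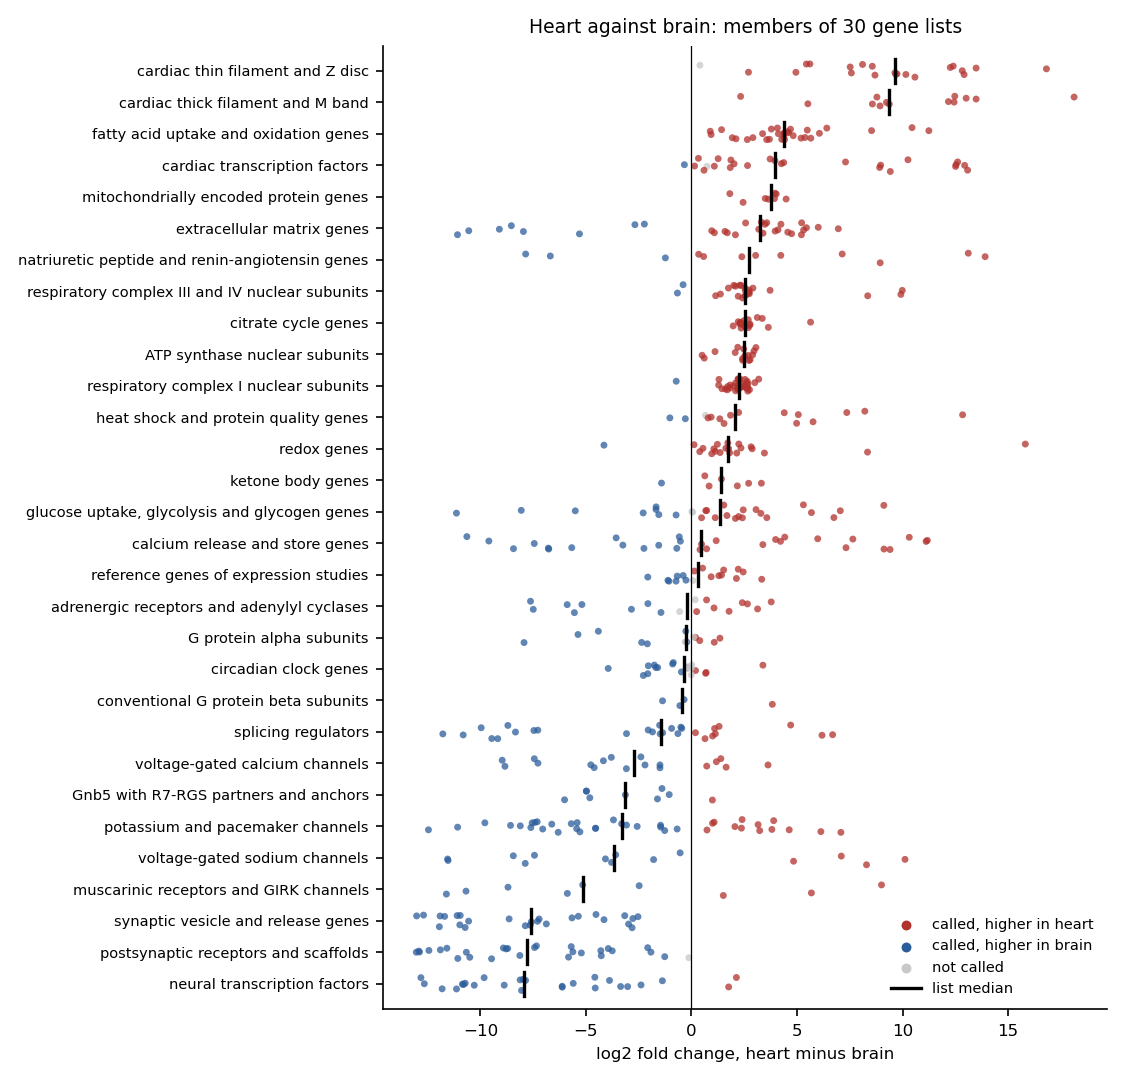
Log2 fold change of heart over brain (horizontal axis) for the members of 30 gene lists, 1 row per list, with each point a gene and each bar the median of a list. The contractile lists lie to the right of 0 and the synaptic lists to the left, and the channel and calcium lists spread to both sides.

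The genes with the largest differences towards the heart encoded contractile proteins, natriuretic peptides and energy carriers of the cardiomyocyte. The 10 protein-coding genes at the top were Myh6, Actc1, Mb, Ankrd1, Nppa, Ckmt2, Myl7, Csrp3, Nppb and Hand2. Myh6 (chromosome 14, 54941921 to 54966927, minus strand, GRCm38) ranged from 24653 to 37061 normalised CPM in the heart libraries, with a median of 35179, and from 0 to 110 in the brain libraries, with a median of 0.0587. The log2 fold change was 18.13 ± 0.90 (adjusted p = 3.95e-17) and 18.65 without the 2 brain libraries. Actc1, cardiac actin, ranged from 5398 to 15615 in heart and from 0 to 56.6 in brain. Its log2 fold change of 16.82 ± 0.82 became 18.69 without those libraries. Mb, the oxygen carrier myoglobin, was at 15.82 ± 0.72, and at 16.24 without them.

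The fold of several of these genes depended on mouse 8. Csrp3, a Z-disc LIM protein, moved from a log2 fold change of 13.49 to 17.19 when its hippocampus and cerebellum libraries were left out, Ankrd1, a stretch-responsive ankyrin protein, from 14.51 to 17.51, and Ckmt2, the mitochondrial creatine kinase of muscle, from 13.51 to 15.81. Nppa moved from 13.91 to 15.65 and Nppb from 13.12 to 14.63. Myl7, the atrial light chain, moved from 13.49 to 13.59 and Hand2, a transcription factor of the developing heart, from 13.08 to 13.99. The direction and the call stayed the same for these 10 genes, and leaving both libraries out kept 7877 of 7980 heart calls and 9767 of 9857 brain calls.

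The sarcomere separated the organs almost gene by gene. All 13 thick filament and M band genes were called higher in heart, with a median log2 fold change of 9.37 (10.29 without the hippocampus and cerebellum libraries of replicate 6), and 20 of 21 thin filament and Z disc genes, with a median of 9.64 (9.91 without them). Together the 2 lists took 4.72% and 2.88% of the gene counts in heart, against 0.0111% and 0.0374% in brain. Ttn, the giant spring protein titin, ranged from 7163 to 12135 normalised CPM in heart and from 0.280 to 38.6 in brain, a log2 fold change of 13.02 ± 0.48, or 13.60 without the 2 brain libraries. Tnnt2, cardiac troponin T, ranged from 4188 to 7023 in heart and from 0 to 19.7 in brain. Without the 2 brain libraries its highest brain value was 3.89. The heart and brain libraries did not overlap for Ttn or Tnnt2.

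Some contractile genes were shared out unevenly within the heart. Myl7 stood at 3652 ± 345 normalised CPM in atria and 37.7 ± 18.7 in ventricles (mean ± SD, n = 6), and Myl4, the other atrial light chain, at 7273 ± 1354 and 70.2 ± 32.3. Myl2 and Myl3 had the reverse order, with 364 ± 416 and 197 ± 115 in atria and 9964 ± 605 and 4545 ± 526 in ventricles. Myh7, the slow myosin heavy chain, was at 11.6 ± 4.46 in atria and 333 ± 134 in ventricles, against 8.47 ± 1.02 in cortex, so that the heart and brain ranges overlapped. For Myh7b the atria were at 5.37 ± 5.01, inside the range of the brain regions, and the ventricles at 155 ± 24.9. Its log2 fold change was 2.33 ± 0.21, but -0.20 with atria alone as the heart (adjusted p = 0.56). Tnni1, the slow skeletal troponin I, was the list member without a call, at 0.40 ± 0.22 (adjusted p = 0.087), and was at -0.44 under scaling by library totals alone and at 0.49 without the 2 brain libraries (adjusted p = 0.045).

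A few of these genes were not silent in the brain. Mybpc3, cardiac myosin-binding protein C, stood at 135 ± 45.7 normalised CPM in the cerebellum (n = 6), against 3.94 ± 9.33 in the hippocampus and 0.807 ± 0.376 in the cortex. It ranged from 1380 to 5791 in heart. Nebl, a nebulin-like Z-disc protein, stood between 60.7 and 117 in brain and between 430 and 717 in heart. Tpm1, a tropomyosin, was at 101 to 148 in brain and 3415 to 8510 in heart.

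Within the myosin genes the annotation places microRNAs, short RNAs that repress messages by pairing through a seed at bases 2 to 8. The mature forms were not measured here, and only the host genes carry values. The hosts shown were chosen after their values were seen, because they belong to the contractile, muscarinic and neural genes described here. The sequences are RefSeq's on GRCm38, written 5′ to 3′ with the seed in capitals.
miR-208a-3p: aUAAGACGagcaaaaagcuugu
miR-208b-3p: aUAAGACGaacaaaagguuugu
miR-499-5p: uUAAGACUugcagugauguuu
miR-490-3p: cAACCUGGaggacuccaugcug
miR-9-5p: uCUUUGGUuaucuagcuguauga
miR-153-3p: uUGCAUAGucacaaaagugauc

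The miR-208a hairpin lies in Myh6 (chromosome 14, 54949060 to 54949142, minus strand), that of miR-208b in Myh7 (54975700 to 54975776 of the same strand) and that of miR-499 in Myh7b (chromosome 2, 155622880 to 155622958, plus strand). The first pair share the seed UAAGACG, and the seed of miR-499-5p is UAAGACU. All 3 hosts were called higher in heart. The miR-490 hairpin lies in Chrm2, the muscarinic receptor gene described further on, which was also higher in heart. The hairpins of miR-9-5p lie in 3 noncoding genes called higher in brain, Gm3764 (log2 fold change -12.91 ± 0.17), C130071C03Rik (-9.03 ± 0.14) and Mir9-3hg (-11.65 ± 0.17). That of miR-153-3p lies in Ptprn2, a dense-core vesicle protein gene, at -9.71 ± 0.14. Without the atria of replicates 3 and 5 Gm3764 was at -13.61, Mir9-3hg at -12.86 and Ptprn2 at -10.57. Over the whole table, 634 of 1005 hairpins lay within a tested gene of the same strand. The host was called higher in heart for 245 and higher in brain for 354, in shares near those of all genes (41% and 50.6%). Where a hairpin lay in several genes, the host with the fold furthest towards heart was taken.

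Binding motifs of muscle regulators and of a neuronal repressor were looked for in proximal promoters. The promoters of 4 contractile genes are shown, 2 with a CArG box, the site of serum response factor, and 2 with a MEF2 site, and that of Dner, a Notch ligand of neurons, with a match to the core of the RE1 element, the site of the repressor Rest. They were chosen after the matches were known. Each is the run of 250 bases before the RefSeq start on GRCm38, on the minus strand, with the matched site in capitals: Actc1 at chr2:114052876-114053125, Myl7 at chr11:5898783-5899032, Ttn at chr2:76982548-76982797, Myoz2, a Z-disc protein gene, at chr3:123034988-123035237, and Dner at chr1:84696222-84696471.
Actc1: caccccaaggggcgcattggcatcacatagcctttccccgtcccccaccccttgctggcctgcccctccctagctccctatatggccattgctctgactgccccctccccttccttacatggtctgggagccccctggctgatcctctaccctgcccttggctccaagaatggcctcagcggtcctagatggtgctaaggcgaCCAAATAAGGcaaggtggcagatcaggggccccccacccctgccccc
Myl7: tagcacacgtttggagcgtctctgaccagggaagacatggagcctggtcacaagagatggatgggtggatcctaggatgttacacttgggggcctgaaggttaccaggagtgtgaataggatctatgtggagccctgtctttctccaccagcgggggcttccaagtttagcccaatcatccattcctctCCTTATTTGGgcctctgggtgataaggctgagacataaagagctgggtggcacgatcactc
Ttn: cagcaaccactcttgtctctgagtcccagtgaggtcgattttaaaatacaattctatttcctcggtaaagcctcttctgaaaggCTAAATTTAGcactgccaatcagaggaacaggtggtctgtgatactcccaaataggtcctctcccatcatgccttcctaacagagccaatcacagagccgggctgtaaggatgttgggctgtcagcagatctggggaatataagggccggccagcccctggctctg
Myoz2: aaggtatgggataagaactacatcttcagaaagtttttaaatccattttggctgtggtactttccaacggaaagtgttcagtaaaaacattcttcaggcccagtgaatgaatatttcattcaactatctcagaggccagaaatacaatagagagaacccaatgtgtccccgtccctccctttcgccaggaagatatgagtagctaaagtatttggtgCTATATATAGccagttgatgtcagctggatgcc
Dner: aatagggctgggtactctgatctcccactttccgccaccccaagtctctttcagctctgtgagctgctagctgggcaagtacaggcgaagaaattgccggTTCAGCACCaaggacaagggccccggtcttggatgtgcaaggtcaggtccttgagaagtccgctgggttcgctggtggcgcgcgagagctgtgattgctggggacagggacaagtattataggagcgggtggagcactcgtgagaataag

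The CArG box began 47 bases before the start of Actc1 and 61 before that of Myl7, the MEF2 site 166 bases before the start of Ttn and 33 before that of Myoz2, and the RE1 core 150 bases before that of Dner. Dner itself had a log2 fold change of -12.39 ± 0.19, or -13.38 without the 2 atria libraries that carried neuron transcripts. Motifs were searched on both strands from 250 bases before to 50 after the start, in the 200 protein-coding genes of largest fold in each direction, of which 145 heart genes and 148 brain genes had a RefSeq promoter. A MEF2 site was found in 13 of the heart promoters (8.97%) and 2 of the brain promoters (1.35%), against 0.498% of the 12239 promoters of all tested coding genes. A CArG box was found in 4.14% and 0.676%, against 1.35%. TATAAA was found in 24.1% and 6.08%, against 7.96%.

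Other motifs differed less or were rare. The letters AGATAA, which GATA factors can bind, were found in 20% of the heart and 8.78% of the brain promoters, against 6.97% of all. CAGCTG was found in 31.7% and 20.9%, against 15.96%, and CAGGTG in 24.8% and 23.6%, against 18.4%. TTCAGCACC, the RE1 core, was in none of the 145 heart promoters and in 5 of the 148 brain promoters (3.38%), against 0.425% of all. TCAAGGTCA, an ESRR site, was in 0 and 1 of them. The MEF2 site lay in a larger share of heart than brain promoters also among the 100 genes of largest fold (10.4% against 0%) and among the 500 (4.93% against 0.545%). No test was made, a match is not a bound site, and motifs that share letters were counted separately.

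**Figure D3:**
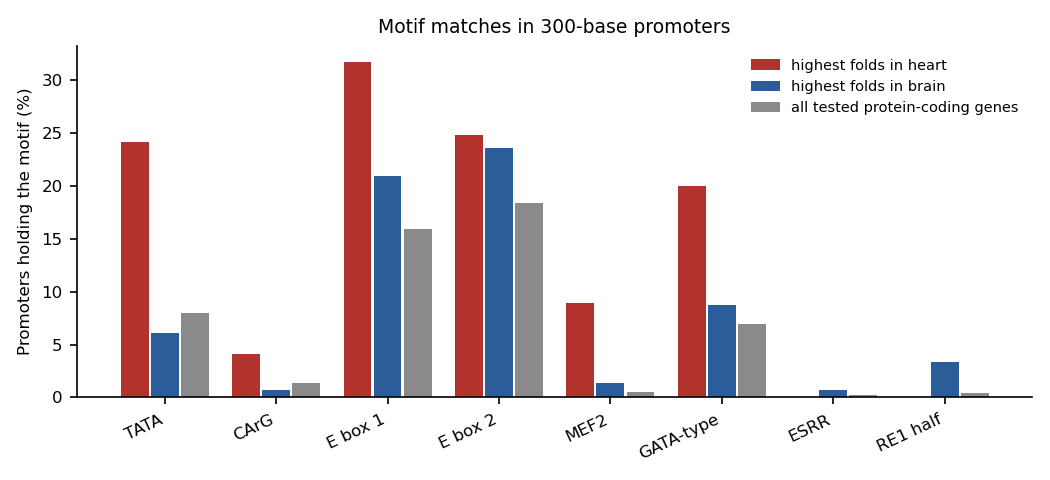
Share of promoters holding each motif (%, bars from 0) among the 200 coding genes of largest fold towards heart, the 200 towards brain and all tested coding genes, where E box 1 is CAGCTG and E box 2 is CAGGTG. The bars for the MEF2 site stand at 8.97%, 1.35% and 0.498%.

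Calcium handling genes differed in both directions, in shares near those of all genes. Of 30 calcium release and store genes, 16 were called higher in heart and 14 higher in brain, with a median log2 fold change of 0.44 that turned to -0.42 under scaling by library totals alone. Pln, the brake on the calcium pump, ranged from 1804 to 9987 normalised CPM in heart and from 0.691 to 37.3 in brain (3.67 without the 2 libraries), a log2 fold change of 11.12 ± 0.41 (11.58 without them). Atp2a2, the pump itself, had a smaller difference, from 15492 to 24195 in heart and from 733 to 1542 in brain, 4.22 ± 0.06. Ryr2, the release channel, ranged from 2512 to 3983 in heart and from 234 to 396 in brain, 3.38 ± 0.05. Pln was thus close to 0 in most brain libraries where Atp2a2 and Ryr2 were well expressed.

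The junctophilins, which tether the store to the cell surface, were exchanged between the organs. Jph2 ranged from 208 to 590 normalised CPM in heart and from 0.205 to 2.62 in brain, 9.12 ± 0.16. Jph3 and Jph4 were at most 0.347 and 0.855 in heart and at least 99.1 and 176 in brain, with log2 fold changes of -10.64 ± 0.15 and -9.60 ± 0.14, and that of Jph3 was -11.67 without the atria of replicates 3 and 5. Itpr1, the inositol trisphosphate receptor, stood at 4071 ± 260 in the cerebellum (n = 6), where Purkinje cells are rich in it, and at 105 ± 6.18 in atria. Casq2, the calcium buffer of the cardiac store, reached 34.9 ± 4.04 in the cerebellum but 2.87 ± 2.27 in the hippocampus. Sln, a pump inhibitor, was an atrial transcript at 1360 ± 223 against 10.5 ± 5.69 in ventricles. Fkbp1b, whose protein binds the release channel, was higher in brain at -3.25 ± 0.09, at levels of at most 2.10 in heart and 17.7 in brain.

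Energy genes rose in the heart in nearly every step that runs in mitochondria. All 31 fatty acid uptake and oxidation genes were called higher in heart, with a median log2 fold change of 4.38, as were all 18 citrate cycle genes (2.53) and all 15 nuclear ATP synthase genes (2.48). Of the nuclear subunits, 35 of 36 in complex I (2.23) and 22 of 24 in complexes III and IV (2.53) were called higher in heart. The exceptions were Ndufb2 at -0.72 ± 0.07, Cox6a1 at -0.67 ± 0.07 and Cox8a at -0.40 ± 0.08, each higher in brain with overlapping libraries. Cox8a lost its call without cortex (-0.16, adjusted p = 0.050). The heart shares lie far from the 41% of all genes.

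Uptake of fatty acids had the largest differences of this kind. Fabp4, a fatty acid carrier of endothelium and fat, ranged from 138 to 522 normalised CPM in heart and from 0 to 1.68 in brain, 11.25 ± 0.26. Cd36, the uptake receptor, ranged from 666 to 2841 in heart and from 0.0852 to 12.3 in brain, 10.45 ± 0.33. Both folds were over 1.5 times larger without the 2 libraries, at 12.29 and 11.11. Lpl, which frees fatty acids from circulating lipid, stood at 7968 ± 583 in ventricles, 2424 ± 561 in atria, 54.2 ± 15.5 in hippocampus and 2.16 ± 3.80 in cerebellum (n = 6 each). Within the oxidation pathway, Acadm was at 5.19 ± 0.06 and Hadha at 4.38 ± 0.06, with no overlap between heart and brain libraries. Pdk4, which holds back glucose oxidation, varied widely among the heart libraries, from 192 to 1632, against a range from 6.12 to 22.6 in brain.

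Ventricles exceeded atria in the levels of Acadm, Idh2 and Atp5b. Acadm stood at 1895 ± 190 normalised CPM in ventricles and 661 ± 88.3 in atria, Idh2, a citrate cycle enzyme, at 2496 ± 480 and 848 ± 104, and Atp5b, an ATP synthase subunit, at 5769 ± 741 and 3962 ± 322 (n = 6). The brain regions lay close together, with Atp5b between 737 and 928 in all 18 brain libraries. The smallest change of the citrate cycle was that of Idh3b, at 1.98 ± 0.03. For ketone bodies, 6 of 7 genes were called higher in heart, led by Acat1 at 3.31 ± 0.04, and Slc16a7, a monocarboxylate carrier, was higher in brain at -1.42 ± 0.08.

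Mitochondrially encoded transcripts filled about 32% of the heart libraries. Their share was 32.4 ± 3.39% of gene counts in heart and 3.96 ± 0.184% in brain (mean ± SD over 6 mice), higher in heart in 6 of 6 mice (two-sided exact permutation test, p = 0.03125, the smallest possible with 6 mice). All 8 tested genes of this kind were called higher in heart, with a median of 3.79, from mt-Nd6 at 1.82 to mt-Nd5 at 4.48. mt-Co1, a cytochrome oxidase subunit, stood at 111532 ± 21014 normalised CPM in atria, 215469 ± 31406 in ventricles and 9960 ± 448 in cerebellum. The other 5 of the 13 protein genes held at most 118 counts over the heart libraries and were not tested. Only reads with a unique alignment were counted, so genes with near-identical copies elsewhere in the genome may be undercounted. Alignments that were not unique amounted to 0.760 ± 0.0529 per gene count in heart and 0.256 ± 0.00507 in brain. These values count alignments rather than reads. The share of these transcripts moved with the organ in each library, and its part in the folds was examined only by leaving these genes out before scaling, which gave 8112 heart and 9900 brain calls.

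Glycolysis was divided by isoform. Of 28 glucose uptake, glycolysis and glycogen genes, 18 were called higher in heart and 8 higher in brain, with a median of 1.33. Slc2a4, the insulin-responsive glucose carrier, ranged from 194 to 561 normalised CPM in heart and from 0.767 to 9.58 in brain, 7.05 ± 0.14. Slc2a3, the neuronal carrier, ranged from 2.08 to 4.70 in heart and from 121 to 151 in brain, -5.51 ± 0.08. Aldoc, the brain aldolase, was at most 1.52 in heart and at least 518 in brain. Hk1, the general hexokinase, ranged from 268 to 447 in heart and from 267 to 414 in brain, at 0.02 ± 0.06 (adjusted p = 0.71) and at -0.83 under library totals alone. Gapdh had 22.5 as its brain median and a difference of 2.45 ± 0.11. Many pseudogene copies of it are known, reads with several alignments were not counted, and how many it lost was not measured, so its values are uncertain.

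Most pairs of a muscle form and a neural or general form were exchanged between the organs. In 24 of 30 pairs the muscle form was called higher in heart and the other form higher in brain. Of the muscle forms 28 were called higher in heart, against 41% of all genes. Of the other forms 26 were called higher in brain, against 50.6%. The pairs were chosen as known forms of this kind, and no share over other pairs of genes was computed. The form with the higher level per kb differed between the organs in 22 pairs, or 23 without the 2 brain libraries of mouse 8. Ckm exceeded Ckb, the muscle and brain creatine kinases, 35.4-fold per kb in heart, and Ckb exceeded Ckm 1077-fold in brain, or 20304-fold without those libraries. Eno3 exceeded Eno2, the muscle and neuronal enolases, 992-fold in heart, and the reverse ratio was 27.4 in brain. Ckmt2 exceeded Ckmt1 611-fold in heart and fell 109-fold short of it in brain, or 2334.5-fold without them.

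Other pairs kept their leader or moved together. Pfkm, Aldoa, Fabp3 and Ryr2 were the leading form per kb in both organs, although their partners Pfkp, Aldoc, Fabp7 and Ryr3 were called higher in brain. Ryr3 was higher in heart with atria alone, at 0.57 (adjusted p = 3.44e-05). Mb led Ngb 1.54-fold in brain with all libraries, whereas Ngb led Mb 17.6-fold there without the 2 libraries of mouse 8. Cox7a1 and Cox7a2, Pygm and Pygb, and Slc25a4 and Slc25a5 were all called higher in heart, Slc25a5 with a sign that turned under library totals alone (-0.24). Ank2 and Ank3, membrane anchors, were both called higher in brain. Cpt1b and Cpt1c are uncertain as a pair, since 81.4% of the exonic bases of Cpt1b lie in exons of another gene on its strand.

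**Figure D4:**
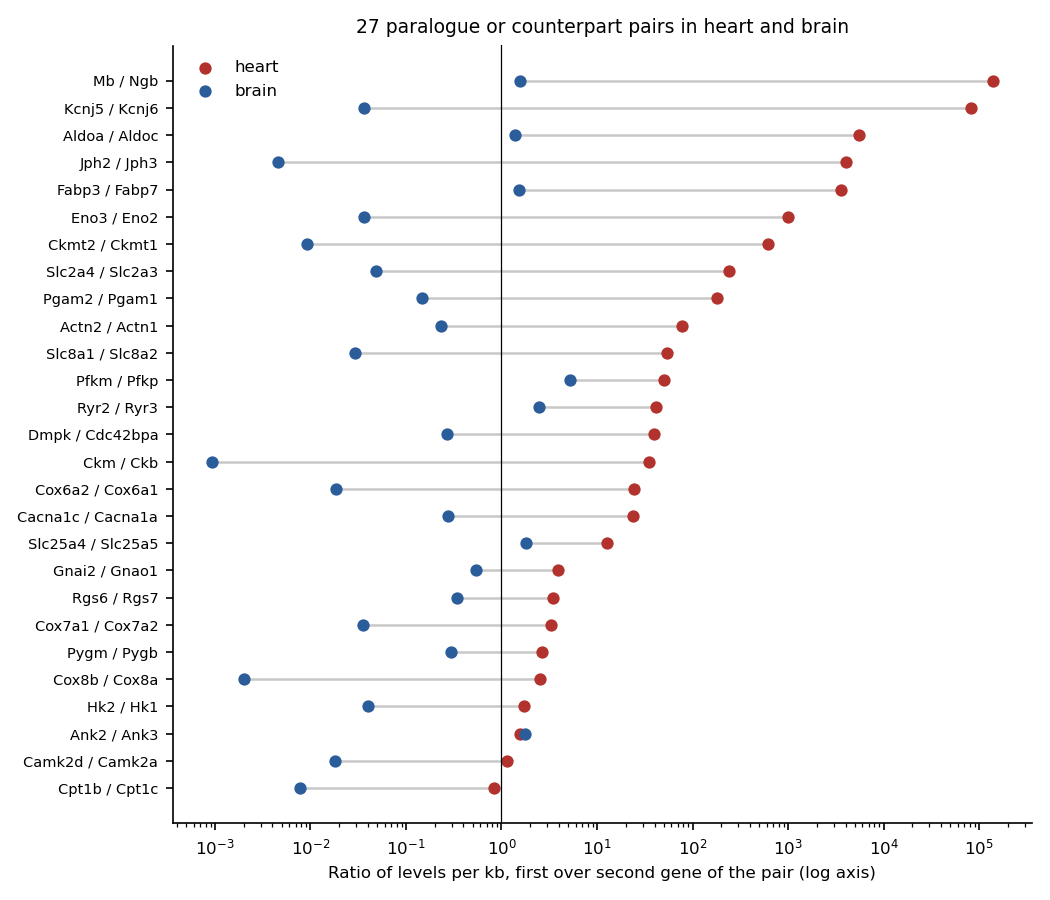
Ratio of the muscle form to the other form, as levels per kb of exon, in heart and in brain for 27 of the 30 gene pairs (log axis). With all 30 libraries the ratio of Ckm over Ckb is 35.4 in heart and 0.000929 in brain, and most pairs cross 1 between the organs.

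Voltage-gated channels belonged mostly to the brain, with a small cardiac set. Of 14 sodium channel genes, 4 were called higher in heart and 10 higher in brain (median -3.69), of 18 calcium channel genes 5 and 13 (-2.74), and of 39 potassium and pacemaker channel genes 13 and 26 (-3.31). Scn1a, Scn8a and Scn2a, neuronal sodium channels, were at most 0.441, 0.632 and 3.31 normalised CPM in heart and at least 104, 342 and 265 in brain.

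Calcium and potassium channels also included genes higher in each organ. Cacna1c, the L-type channel of cardiac muscle, differed little, with 188 to 667 in heart and 110 to 182 in brain, 1.39 ± 0.05. Cacna1e was at -8.97 ± 0.12. Kcnq1, a repolarising channel of the heart, ranged from 39.1 to 78.6 in heart and from 0.263 to 0.781 in brain, 7.08 ± 0.09. Hcn4, the pacemaker channel, stood at 11.8 ± 8.76 in whole atria, 16.7 ± 4.72 in ventricles and 5.59 ± 0.676 in cortex (n = 6), with overlapping libraries.

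Gnb5 was expressed in every library and was higher in brain. It ranged from 27.05 to 39.2 normalised CPM in heart, with a median of 31.3, and from 76.2 to 124 in brain, with a median of 105, so the libraries of the organs did not overlap. The means were 35.2 ± 3.43 in atria, 30.2 ± 2.97 in ventricles, 114 ± 6.60 in cerebellum, 80.7 ± 3.39 in hippocampus and 107 ± 7.43 in cortex (SD, n = 6). The log2 fold change was -1.61 ± 0.04 (adjusted p = 6.88e-24), and the gene lies on chromosome 9, 75306288 to 75345876, plus strand. Of the 9 genes of Gnb5, its R7 partners and their anchors, 8 were called higher in brain, with a median of -3.13.

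Rgs6 was the exception among the R7 genes. It stood at 110 ± 8.43 normalised CPM in atria, 25.9 ± 5.68 in ventricles, 23.8 ± 1.06 in cerebellum, 12.01 ± 1.52 in hippocampus and 66.9 ± 6.46 in cortex, and was called higher in heart at 0.99 ± 0.05. The atria lay above all brain libraries and the ventricles within their range, and with ventricles alone as the heart the log2 fold change was -0.06 (adjusted p = 0.47). Rgs7 stood at 21.7 ± 2.28 in atria, 2.12 ± 0.482 in ventricles and between 45.01 and 74.99 in brain, -3.13 ± 0.06. Rgs9, known from photoreceptors and striatum, was at most 0.724 in heart and varied from 1.28 to 88.0 in brain. Rgs11 was at most 1.45 in heart and ranged from 2.615 to 3.708 in cerebellum. It stood at 43.3 ± 2.95 in hippocampus and between 40.21 and 49.87 in cortex. Per kb, Rgs6 led Rgs7 3.44-fold in heart, and Rgs7 led Rgs6 2.91-fold in brain.

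The anchors followed Rgs7 rather than Rgs6 in the direction of their differences. Rgs7bp, which tethers R7 complexes to the membrane, ranged from 5.58 to 20.4 in heart and from 258 to 375 in brain, -4.98 ± 0.09. Gpr158, a receptor that binds them, stood at 13.3 ± 3.67 in atria, 0.566 ± 0.275 in ventricles and 244 ± 16.9 in cerebellum. Rgs9bp and Gpr179 were close to the detection limit, at most 0.408 and 1.87 in any library. Of the conventional beta subunits, Gnb1 (-1.37 ± 0.03), Gnb2 (-0.55 ± 0.08) and Gnb4 (-0.35 ± 0.05) were higher in brain, although Gnb4 lost its call without cortex (-0.055, adjusted p = 0.37). Gnb3 was higher in heart at 3.83 ± 0.16, from 1.23 to 16.2 in heart and at most 0.631 in brain.

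The receptor and the heart's channel subunits at the ends of this pathway were highest in atria. Chrm2 and Kcnj5 also stood far above brain in ventricles. Chrm2, the M2 muscarinic receptor, stood at 670 ± 94.3 normalised CPM in atria, 264 ± 21.3 in ventricles, 5.35 ± 0.510 in cerebellum, 7.06 ± 0.780 in hippocampus and 14.5 ± 0.715 in cortex, 5.68 ± 0.06. Chrm1, Chrm3, Chrm4 and Chrm5 were higher in brain, and the cerebellum held at most little of each, with Chrm1 at 0.318 ± 0.190 there and 194 ± 9.81 in hippocampus. Of the GIRK subunits, Kcnj5 was at 403 ± 18.1 in atria, 123 ± 20.6 in ventricles and at most 1.03 in brain, 9.01 ± 0.11. Kcnj3, which combines with the others in both organs, stood at 981 ± 217 in atria and between 101 ± 6.50 and 137 ± 6.64 in the 4 other tissues. Its difference of 1.51 ± 0.06 was therefore atrial, at 0.02 with ventricles alone (adjusted p = 0.68).

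The neuronal GIRK subunits were close to 0 in the heart. Kcnj6 was at most 0.0631 normalised CPM in heart and at least 9.66 in brain, and Kcnj9 at most 0.558 and at least 81.4. In all, 3 of the 9 muscarinic and GIRK genes were called higher in heart and 6 higher in brain. The alpha subunits included Gnao1 at 312 ± 18.3 in atria, 44.2 ± 7.54 in ventricles and 547 to 638 in the brain regions as means, and Gnai2 at 1.08 ± 0.04. Of 13 tested alpha subunit genes 4 were called higher in heart and 7 higher in brain. Of 18 adrenergic receptor and adenylyl cyclase genes 8 were called each way, in shares near those of all genes, and their median of -0.19 changed sign without cortex (0.46). Adrb1, the beta-1 receptor, stood at 19.5 ± 3.50 in atria, 22.1 ± 5.20 in ventricles and 17.6 ± 2.09 in cortex. Adcy1 was at 127 ± 13.4 in atria but 3.96 ± 0.660 in ventricles, and at 2276 ± 97.9 in cerebellum.

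**Figure D5:**
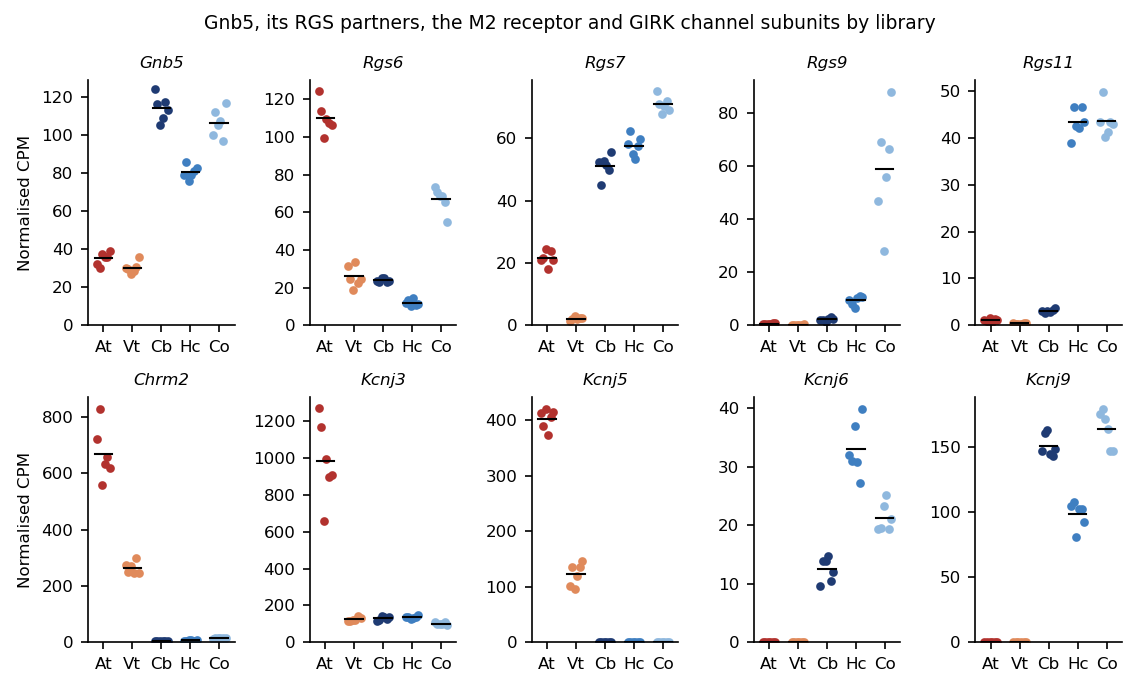
Normalised CPM (linear axes from 0) of 10 genes of Gnb5 signalling in each of the 30 libraries, by tissue (At, atria; Vt, ventricles; Cb, cerebellum; Hc, hippocampus; Co, cerebral cortex). Gnb5 is higher in the 3 brain regions, whereas Rgs6, Chrm2, Kcnj3 and Kcnj5 are highest in atria.

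Synaptic genes were the mirror of the sarcomere. All 26 synaptic vesicle and release genes were called higher in brain (median -7.62), and 27 of 28 postsynaptic genes (median -7.78). Snap25 ranged from 1328 to 1879 normalised CPM in brain, with a heart median of 0.0388 and maximum of 2.83. Its log2 fold change was -13.02 ± 0.40, or -15.09 without the atria of replicates 3 and 5. Grin2b, an NMDA receptor subunit, stood at 632 ± 61.3 in hippocampus and 23.1 ± 1.43 in cerebellum, and had no count in any ventricle library. Slc32a1, the inhibitory transmitter carrier of vesicles, had none there either.

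Some vesicle and postsynaptic genes had heart levels above the trace. Slc17a7, the vesicular glutamate carrier, stood at 276 ± 38.5 in atria and 34.7 ± 10.1 in ventricles, against 328 ± 14.7 in cerebellum and 999 ± 44.8 in hippocampus. Rab3a, a vesicle GTPase, ranged from 25.5 to 66.4 in heart and from 200 to 350 in brain. Camk2a was at 76.0 ± 9.47 in ventricles and 88.2 ± 2.75 in cerebellum, against 3631 ± 186 in hippocampus. Homer1, a scaffold, was the postsynaptic gene without a call, at -0.12 ± 0.06 (adjusted p = 0.057), with 108 ± 20.9 in atria, 40.1 ± 8.38 in cerebellum and 201 ± 36.3 in cortex. Its call depended on the setting, since it was called higher in brain in 11 of them, among them DESeq2 (-0.16, adjusted p = 0.015), and higher in heart with atria alone (0.14, adjusted p = 0.031) or without cortex (0.45).

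With all libraries, the largest differences towards the brain included few classical synaptic genes. The 10 protein-coding genes at the top were then Fam135b, Mlc1, Kcnk9, Galnt13, Calb1, Spock1, Caln1, Syt4, St8sia3 and Fut9, among them a channel, calcium-binding proteins and glycosyltransferases. This ranking depended on the atria of replicates 3 and 5. Without them the postsynaptic genes Gria2, Grin2b and Gabra2 moved from -12.89, -12.925 and -13.04 to -16.21, -15.03 and -14.72. Kcnk9 moved from -13.91 to -16.04, whereas Galnt13 moved only from -13.60 to -13.63. Fam135b, whose function is poorly known, ranged from 72.8 to 163 normalised CPM in brain and reached 0.0372 in heart, a fitted log2 fold change of -14.32 ± 0.14, or -15.12 without the atria of replicates 3 and 5. Mlc1, an astrocyte membrane protein, ranged from 122 to 150 in brain and reached 0.0631 in heart. Galnt13, a glycosyltransferase, had no count in any heart library and was at least 5068-fold higher in brain, taking 3 counts over all heart libraries as the limit. Calb1, a calcium-binding protein of Purkinje cells, stood at 873 ± 26.3 in cerebellum and 115 ± 6.02 in hippocampus.

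Markers of other cells moved with the organs as well. Of oligodendrocyte markers 8 of 8 and of astrocyte markers 7 of 8 were called higher in brain, the exception being Gja1, which cardiomyocytes also use for their gap junctions. Fibroblast (8 of 8), mural cell (8 of 8), leukocyte (13 of 13) and red blood cell (6 of 6) markers were called higher in heart. Red blood cell markers summed to between 343 and 4841 normalised CPM in heart and between 24.2 and 64.03 in brain. Leukocyte markers summed to between 340 and 606 in heart and between 13.6 and 24.6 in brain. Of 12 endothelial markers, 9 were called higher in heart and 3 higher in brain. Of 8 microglia markers 6 were called higher in brain and 1, Csf1r, in heart, with a sign that turned under library totals alone (-0.39) and without cerebellum (-0.093). The part of these cells in the differences of other genes was not tested.

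A few marker sums stood apart within a tissue. Choroid plexus markers reached 1269 normalised CPM in the hippocampus of replicate 5 and 456 in the next hippocampus. Their sum lay between 199.9 and 416 in heart, although 6 of the 8 were called higher in brain and 1 in heart. Skeletal muscle markers ranged from 26.8 to 752 in heart. Of 8 such markers 5 were called higher in heart, as were 5 of 7 tested adipocyte markers. Of peripheral neuron markers 4 of 6 tested were called higher in brain and 1 in heart, and of 5 tested Schwann cell markers 2 were called each way. Of lung and airway markers 2 of 6 passed the filter, and both were called higher in brain, at a summed level of at most 1.34.

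Neurons of different regions left their own marks. Markers of cerebellar granule and Purkinje cells were called higher in brain for 8 of 8, and those of cortical and hippocampal neurons for 6 of 8, with 2 called higher in heart. Within the brain Gabra6, Cnpy1, Ddn and Fezf2 were among the genes with the widest differences between regions. Gabra6, a granule cell GABA receptor subunit, stood at 673 ± 25.9 in cerebellum and 0.136 ± 0.172 in hippocampus. Such genes were called higher in brain while the libraries of 1 region overlapped those of the heart.

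Within the heart, Bmp10, Mlana, Sds, Mybphl and Sln had the widest differences between tissues, all higher in atria. Bmp10, a growth factor of atrial muscle, stood at 4178 ± 1023 normalised CPM in atria and 2.87 ± 6.77 in ventricles, and ranged from 0 to 0.0188 in brain. Mybphl, a myosin-binding protein, stood at 928 ± 126 and 6.58 ± 3.60. For Bmp10, Mlana and Sds the ventricle libraries overlapped those of the brain, so their higher mean in heart came from the atria.

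Transcription factors followed the organs closely. Of 25 tested cardiac factors 23 were called higher in heart (median 3.95), and of 26 neural factors 24 were called higher in brain (median -7.92). Tbx5, which is known for its part in conduction and atrial identity, stood at 381 ± 26.4 in atria, 39.4 ± 8.68 in ventricles and at most 0.399 in brain. Gata4 ranged from 159 to 237 in heart and reached 0.776 in brain, or 0.0195 without the 2 libraries, with log2 fold changes of 12.54 and 15.25. Tbx20 went from 12.94 to 15.73 in the same way and Nkx2-5 from 12.61 to 13.87. Neurod1 stood at 271 ± 16.2 in cerebellum and 8.55 ± 0.526 in cortex, and reached 0.0372 in heart.

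The neural factors called higher in heart were Prox1 and Rest. Prox1, also a factor of lymphatic vessels and heart muscle, stood at 162 ± 22.9 in ventricles, 108 ± 15.7 in hippocampus and 11.9 ± 0.806 in cortex, 1.76 ± 0.08. Rest, which represses neuronal genes outside the brain, ranged from 22.8 to 31.4 in heart and from 4.62 to 8.13 in brain, 2.13 ± 0.05. The heart and brain libraries of Rest did not overlap.

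RNA-binding proteins that steer splicing were also divided. Of 28 tested, 9 were called higher in heart and 19 higher in brain (median -1.43). Rbm20, which regulates titin splicing, ranged from 263 to 467 normalised CPM in heart and from 1.72 to 6.96 in brain, 6.69 ± 0.06. Rbm38 and Rbm24 were at 6.18 ± 0.11 and 4.70 ± 0.06. Rbfox3, the neuronal nuclear antigen NeuN, was at most 0.446 in heart and ranged from 146 to 289 in brain, -11.78 ± 0.13, and Celf6 was at -10.82 ± 0.19.

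Natriuretic peptide and renin-angiotensin genes were mostly higher in heart. Nppa, atrial natriuretic peptide, stood at 15546 ± 2178 normalised CPM in atria, 137 ± 36.2 in ventricles and at most 0.630 in brain. Corin, the enzyme that matures it, stood at 755 ± 49.8 and 365 ± 45.4 in the heart, and at 11.4 ± 1.47 in cerebellum against 0.261 ± 0.0807 in cortex. Of 12 tested natriuretic and renin-angiotensin genes, 9 were called higher in heart and 3 higher in brain (median 2.71). Agt, angiotensinogen, was among the latter at -1.24 ± 0.09, with 51.1 ± 4.48 in cerebellum and 19.1 ± 4.50 in atria, and its difference with atria alone was -0.09 (adjusted p = 0.33). Agtr1a, the angiotensin receptor, was at 50.4 ± 9.16 in ventricles and at most 0.627 in brain.

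Extracellular matrix genes were mostly higher in heart. Of 30, 22 were called higher in heart and 8 higher in brain (median 3.25). Col3a1, a fibrillar collagen, ranged from 210 to 768 normalised CPM in heart and from 1.24 to 4.87 in brain. Bcan, a proteoglycan of the brain matrix, was at most 0.781 in heart and stood at 135 ± 9.27 in cerebellum and 218 ± 10.6 in cortex, and Hapln2, a link protein of nodes of Ranvier, was at -10.55 ± 0.21. Redox genes were higher in heart for 20 of 21 (median 1.72), with Gpx3 at 3811 ± 496 in atria and 283 ± 65.2 in ventricles, and Ngb, neuroglobin, was higher in brain at -4.15 ± 0.22. Heat shock and protein quality genes were higher in heart for 13 of 16 (median 2.04), Hspb7 at 12.85 ± 0.50 and 14.37 without the 2 libraries. Hsp90aa1 was higher in brain. Dnajb1 was called higher in brain at -0.29 ± 0.13 (adjusted p = 0.035), but the call was lost in 12 other settings, among them the fit without the mouse block (adjusted p = 0.74), and the gene was higher in heart in 2 of 6 mice (two-sided exact permutation test, p = 0.25).

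Clock genes differed in both directions, with log2 fold changes from -3.95 to 3.39. Of 20, 4 were called higher in heart and 11 higher in brain, with a median of -0.35. Among the former, Nr1d1, Nfil3 and Arntl turned sign under library totals alone. Per2 varied widely among the heart libraries, from 2.48 to 33.2, and was higher in brain at -2.04 ± 0.17. Arntl, at 0.19 ± 0.05, lost its call with ventricles alone, at -0.03 (adjusted p = 0.61). The hour of dissection was not given in the sources used here.

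Genes often used as references were not even, and calls were about as frequent among them as among all genes (91.6%). Of 18, 10 were called higher in heart and 7 higher in brain, with a median of 0.33 that turned to -0.53 under scaling by library totals alone. B2m was at 3.33 ± 0.08 and Rplp0 at 2.13 ± 0.05, whereas Ywhaz was at -2.07 ± 0.04 and Tbp at -1.07 ± 0.05. Actb was at -0.40 ± 0.06 (-0.13 without hippocampus, adjusted p = 0.099) and Hprt at -0.67 ± 0.05, both with overlapping libraries. Scaling moved such small differences, since the median of all genes was -1.08 with library totals alone.

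Long noncoding genes leaned towards the brain. Of 2286 tested, 629 (27.5%) were called higher in heart and 1391 (60.8%) higher in brain, against 44.3% and 48.0% of 15747 coding genes. Hand2os1, the antisense partner of Hand2, ranged from 48.8 to 91.7 normalised CPM in heart and reached 0.210 in brain, 12.14 ± 0.20, or 13.98 without the hippocampus and cerebellum libraries of replicate 6. D830005E20Rik, Gm15543, Gm35330 and Gm47547 were the other top noncoding genes of the heart, at log2 fold changes of 10.44 to 12.29. Without those libraries D830005E20Rik was at 13.52 and Gm15543 at 13.05. Mir124a-1hg, the host of a neuronal microRNA, ranged from 189 to 666 in brain, -14.07 ± 0.22, or -16.66 without the atria of replicates 3 and 5. Gm14204 had no count in any heart library and was at least 1695-fold higher in brain, by the same limit of 3 counts. B230334C09Rik and C230057M02Rik were at -12.16 ± 0.17 and -11.98 ± 0.14, the former at -13.11 without those atria.

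The most abundant transcripts per kb were mitochondrial in both organs. In heart, mt-Co1, mt-Cytb, mt-Nd1, mt-Nd5, mt-Nd2 and mt-Nd4 were followed by Nppa (9065 normalised CPM per kb), Mb (8230), Actc1 (6187) and Myh6 (5025). In brain, 6 mitochondrial genes were followed by Calm2 (588), which encodes calmodulin, Cpe (533), a peptide-processing enzyme, Sparcl1 (479) and Psap (421), the precursor of the saposins. Psap was not called, at -0.02 ± 0.06 (adjusted p = 0.73), with 435 per kb in heart.

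The 6 Gnb5-/- mice, with the same 5 tissues each, gave the same contrast in animals the values above did not use. Of 7911 genes called higher in heart and tested in both, 7368 were called higher in heart there too and none was called lower. Of 9676 called higher in brain, 8747 were called in the same direction and 6 in the opposite. The median absolute difference between the log2 fold changes of the genotypes was 0.18. Gnb5 is the deleted gene in these animals, so its own value there is no comparison of organs.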

How the data were processed

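The authors made stranded total RNA libraries, trimmed reads with Cutadapt 1.8, aligned them to GRCm38 with STAR 2.5.3a and counted unique alignments per Ensembl gene with htseq-count 0.9.1. The deposited values are these raw counts, 1 file per library, with no normalisation. Of 53715 gene identifiers, 53620 matched GENCODE M21, which gave symbols, coordinates and exon lengths. The submitters' count table lines for reads outside genes (5.35 ± 0.226% per mouse in heart and 14.5 ± 0.333% in brain of uniquely aligned reads) were left out of library sizes.

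Counts of the 30 libraries were filtered with filterByExpr (count minimum 10) and then normalised with TMM, with library totals taken over the genes kept. They were fitted with edgeR's quasi-likelihood test (edgeR 4.0.16 in R 4.3.3) on tissue and mouse, with Benjamini-Hochberg adjustment and a threshold of 0.05. Standard errors were derived from each log2 fold change and its F statistic. The labels give each mouse's number in all 5 tissues, and libraries of the same mouse deviated together (mean correlations of 0.175 to 0.375 over tissue pairs), so the mouse was a block. P-values of the edgeR fit measure the spread left among the 30 libraries after tissue and mouse. They do not measure the spread of the organ difference between the 6 animals. The limma fit on the 6 within-mouse differences used that spread, and called 7695 genes higher in heart and 9888 higher in brain. Within-mouse differences used log2 CPM with a prior count of 2. Levels per kb divide normalised CPM by the merged exon length. For genes near 0 in most libraries of an organ the standard errors may be too narrow. Their folds could move by more than these errors when 2 libraries were left out. Fam135b went from -14.32 to -15.12 without the atria of replicates 3 and 5. Csrp3 went from 13.49 to 17.19 without the hippocampus and cerebellum libraries of replicate 6. The tests were tried on simulated data first.

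The gene lists, pairs, markers and motifs, the 30 libraries and the contrast were chosen with earlier results of these data known. Named genes were list members of largest fold or level, all members of the Gnb5 list, the 10 coding and 5 noncoding genes of largest fold, the 10 of highest level per kb in each organ and the 5 of widest range within an organ. List members without a call, or called against the rest of their list, and those given for their levels in 1 tissue were chosen after their values were seen. Alternatives were DESeq2 1.42.0, limma 3.58.1, other scalings and filters, no block, parts of each organ, 1 mouse left out, and Gnb5-/- mice. The fits without 2 brain libraries and without 2 atria libraries were added after the data were seen. Results for Gnb5+/- mice and isoforms were not analysed here, and some genes that the rule names are not reported here.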

Additional observations from a re-analysis of the deposited data

Results flagged for a closer look

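Within-mouse differences (log2 CPM, mean of heart tissues minus mean of brain regions, 6 mice per gene) and library values were searched for a mouse or library whose gap to the nearest other exceeded the 95% limit of Dixon's range test. Of 348 groups, 52 were found, where 5% are expected by chance. Ryr3 was higher than in brain in the atria of every mouse (mean log2 difference 0.5873) and lower in the ventricles of every mouse (-3.66), and the difference between the heart tissues was not tested. Of the 233 genes compared, 7 had differences of both signs between mice.

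Mouse 8, replicate 6, had the lowest difference for most cardiomyocyte genes found. For contractile genes its differences were 11.16 for Myh6 (next mouse 18.34), 10.54 for Actc1 (next 16.92), 10.24 for Ttn, 9.989 for Myom2, 8.355 for Myl3, 9.531 for Tnnt2, 10.01 for Tnni3, 8.394 for Tnnc1, 10.36 for Csrp3, 10.07 for Myoz2 and 9.878 for Lmod2. For calcium handling they were 8.889 for Pln, 9.614 for Hrc and 8.944 for Trdn. For metabolic genes they were 9.261 for Fabp4, 8.627 for Cd36, 7.149 for Lpl, 8.03 for Pgam2, 10.06 for Ckm, 9.906 for Ckmt2 and 10.35 for Mb (next 15.72). For regulators they were 10.42 for Tbx20, 9.594 for Gata4, 9.798 for Tbx5, 11.42 for Ankrd1 and 8.643 for D830005E20Rik. The same mouse had the highest difference of Nfil3, 1.61 (next 0.5737). Its hippocampus had the highest summed cardiomyocyte markers, 684.9 normalised CPM (next 405.1), and its ventricles the highest share of reads outside genes, 5.517% (next 4.728).

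Replicate 5, whose atria held Snap25, had the difference nearest 0 for Slc8a2 (-6.16), Slc32a1 (-9.194), Neurod1 (-8.983), Fam135b (-10.58), Kcnk9 (-10.52) and Fezf2 (-5.218), and the lowest for Kcnj2 (2.737) and Gja1 (1.425). It also had the highest choroid plexus markers in hippocampus, 1269 (next 456.3), and the highest microglia markers and cerebellar markers in cortex, 343.7 and 164.1. Replicate 3 had the lowest difference for Kcnj3 (1.187), Ank2 (-2.083) and Rab3a (-2.901), the highest for Bmp10 (12.69), and the highest cerebellar markers in atria, 33.55 (next 27.43).

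Replicate 1 had the highest difference for Gnb3 (5.082) and Adcy1 (-5.514), the highest leukocyte markers in hippocampus, 19.23, and the highest red blood cell markers in cortex, 52.85. Replicate 2 had the lowest for Gnal (-8.808), and its atria the highest mitochondrial share, 34.5% of gene counts (next 26.42), and the highest share of the 10 top genes, 39.6% (next 32.65). The part of any of these libraries in the differences was not tested beyond the fits that leave them out.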

How the results depend on the processing

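The counts of called genes held within 1.5 times under most settings. Without the replicate block 7936 genes were called higher in heart and 9775 higher in brain, and the block changed the call of Dnajb1 alone among the 233 genes compared (adjusted p = 0.74 without it). Leaving out 1 mouse gave 7842 to 7969 heart calls and 9736 to 9906 brain calls, with 4396 to 4503 and 4994 to 5156 genes whose libraries did not overlap. Library totals alone gave 4952 heart calls, 2282 non-overlapping heart genes and 8093 non-overlapping brain genes. At least 10 counts in every library gave 5960 brain calls and 3123 non-overlapping brain genes, since genes near 0 in heart were then not tested. DESeq2 called 7835 and 10189.

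Of the gene values under all settings, 5164 kept direction and call, 30 reversed, 21 gained and 21 lost the call, 12 of the lost calls being those of Dnajb1. Under library totals the medians of calcium genes (-0.42) and reference genes (-0.53) reversed, as did Tnni1 (-0.44), Hk1 (-0.83), Arntl (-0.66), Nr1d1 (-0.16), Nfil3 (-0.18), Csf1r (-0.39) and Slc25a5 (-0.24). At least 10 counts in every library reversed the medians of muscarinic and GIRK genes (3.47, fewer genes tested) and adrenergic genes (0.94), and Hk1 (-0.11). The adrenergic median also reversed without cortex (0.46) and in Gnb5-/- mice (0.29). With ventricles alone Tnni1 (-1.03), Rgs6 (-0.057), Hk1 (-0.043), Arntl (-0.034) and Psap (0.40) reversed, and with atria alone Myh7b (-0.20), Homer1 (0.14) and Ryr3 (0.57). Csf1r reversed without cerebellum (-0.093), Homer1 without hippocampus (0.064) or cortex (0.45), and Psap without hippocampus (0.020), without cortex (0.067) and in Gnb5-/- mice (0.026). Hk1, near 0, reversed with DESeq2 (-0.019), RLE (-0.019), no filter (-0.053), without cerebellum (-0.096) and without the atria of replicates 3 and 5 (-0.032), and leaving out 1 mouse gave -0.020 to 0.046 for Hk1 and -0.052 to 0.0055 for Psap. The cause was not tested for any of these. Depth was above 30277796 gene counts in every library, and genes at 0 to 3 counts in an organ give bounds only.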
